A study of Homo sapiens with 4 samples.

Results

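Liver progenitor and cancer stem markers are a set of 10 genes used to recognise immature liver cells and the tumour-initiating fraction of liver cancers: EPCAM, PROM1, CD24, CD44 and THY1, which encode cell surface proteins, SPP1, which encodes a secreted ligand, KIT, which encodes a receptor tyrosine kinase, and SOX9, SOX4 and SALL4, which encode transcription factors. The 10 genes were taken from the table of counts per gene by symbol, out of 61541 gene IDs, and all 10 were present. The cells were MHCC97H, an established human hepatocellular carcinoma (HCC) line with high metastatic potential, and mRNA sequencing compared UBXN1 knockdown cells (shUBXN1, 2 libraries) with control shRNA cells (shCon, 2 libraries). UBXN1 encodes a ubiquitin-binding adaptor of the segregase p97, and the comparison asks which transcripts change in HCC cells when its mRNA is reduced. No cells without an shRNA construct were analysed here, which of the UBXN1 shRNAs was used is not given in the sources used here, and nothing in the labels says that replicates came from separate cultures, so the p-values measure only the spread between these libraries, which may be technical.

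During liver development, bipotent progenitor cells give rise to both hepatocytes and bile duct cells, and they carry adhesion molecules and transcription factors that mature hepatocytes lose. The same molecules are regained by ductular cells in injured liver and by a fraction of HCC cells, and sorting for EPCAM, PROM1 (also called CD133), CD24, CD44 or THY1 (also called CD90) is a common way to enrich cells that start tumours in mice. SOX9 and SOX4 act together in the forming bile duct, SALL4 is active in the fetal liver and silent in the adult one, and osteopontin, the product of SPP1, is made by biliary cells and many carcinomas and binds both integrins and CD44.

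The libraries held 23373700 to 27380508 counts. CPM below are counts per 1000000 counts of a library, scaled by TMM, a factor that aligns the bulk of genes between libraries, and TPM are counts divided by gene length and scaled to the same total, which allows levels of different genes to be compared. A gene was called where the edgeR quasi-likelihood test, fitted over 16863 genes with enough counts, gave a Benjamini-Hochberg adjusted p under 0.05. UBXN1 itself had 67.1 and 77.3 CPM in shCon and 16.8 and 18.5 CPM in shUBXN1, a log2 fold change of -2.03 (SE 0.0963, adjusted p = 9.98e-10). Against the cell type given in the labels, the keratin genes KRT8 and KRT18 were abundant, with 2329 to 3467 and 895 to 1247 CPM. The hepatocyte marker ALB was low, at 18.0 and 17.2 CPM in shCon and 4.202 and 4.784 CPM in shUBXN1, and GPC3, an oncofetal HCC marker, was at 0 in all 4 libraries.

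The levels of the 10 markers differed widely. Per length, SPP1 was the highest of them, with a mean of 1463 TPM ± 7.75 (SD, n = 2) in shCon and 1979 TPM ± 6.09 in shUBXN1, and it ranked 64 of all 61541 gene IDs by mean TPM. CD24 came next in shCon at 162 TPM ± 7.88, then CD44 at 140 TPM ± 1.08, SOX4 at 91.5 TPM ± 1.76 and SOX9 at 19.8 TPM ± 0.291, and the libraries of neighbouring genes in this order did not overlap. In shUBXN1 the order was the same, but CD24 at 111 TPM ± 4.91 and CD44 at 109 TPM ± 1.11 no longer stood apart. EPCAM and SALL4 lay far below, with means of 0.646 and 0.348 TPM in shCon and 1.10 and 0.433 TPM in shUBXN1. PROM1, THY1 and KIT were at or next to 0.

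**Figure D1:**
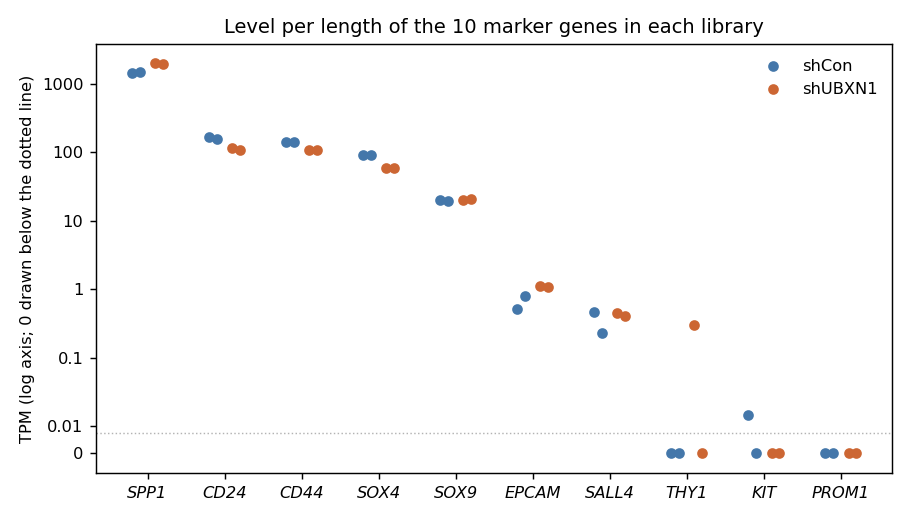
Level per length (TPM, log axis) of each of the 10 marker genes in each of the 4 libraries, with shCon in blue and shUBXN1 in orange; values of 0 are drawn below the dotted line. SPP1 lies at 1457 TPM or more in all 4 libraries, CD24, CD44, SOX4 and SOX9 lie between 19.6 and 167.5 TPM, EPCAM and SALL4 lie near or under 1 TPM, and PROM1 is at 0 throughout.

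Of the 10 markers, 7 had enough counts to be tested. CD24, CD44 and SOX4 fell and SPP1 rose in shUBXN1, while SOX9, EPCAM and SALL4 were not called. Thus 4 of 7 were called, against 56.2% of all genes tested: 1 of 7 was higher, where 28.0% of all genes were, and 3 of 7 were lower, where 28.2% of all genes were. With only 7 genes, these shares do not set the markers apart from the transcriptome at large. None of the 7 passed the stricter rule of a 2-fold change with an unadjusted p under 0.05, which 11.8% of all genes met as higher and 6.09% as lower. The 2 groups of libraries did not overlap for 5 of the 7, compared with 78.0% of all genes tested. The median log2 fold change of the 7 was -0.01, and that of all genes tested was 0.02. In a bulk sample, fewer cells carrying a marker and less of its RNA per cell cannot be told apart.

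Among the surface proteins, CD24, a small glycosylated membrane-anchored protein that marks progenitor and tumour-initiating liver cells, had 67.9 and 65.3 CPM in shCon and 43.6 and 44.1 CPM in shUBXN1. Both knockdown libraries were lower than both controls, and the spread within each group was small. CD24 fell to 65.8% of control (95% interval 58.8% to 73.6%), a log2 fold change of -0.60 (SE 0.0758, edgeR adjusted p = 1.07e-05). The gene lies on chromosome 6 from 106969831 to 106975627 on the minus strand (GRCh38). CD24 has near-identical processed copies elsewhere in the genome, and reads that fit several copies make its level uncertain. The 4 rows of the table annotated as CD24 pseudogenes held 0 counts in every library. How such reads were assigned is not given in the sources used here, so these rows do not lessen that uncertainty.

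CD44, the main receptor for hyaluronan, which also binds osteopontin, had 375.7 and 382.9 CPM in shCon and 270.5 and 295.6 CPM in shUBXN1. The groups did not overlap, and the knockdown libraries differed from each other more than the controls did. CD44 fell to 74.6% of control (66.6% to 83.7%), a log2 fold change of -0.42 (SE 0.0770, edgeR adjusted p = 3.19e-04). It lies on chromosome 11 from 35138882 to 35232402 on the plus strand. Of its exon bases, 1.54% overlap CD44-DT and CD44-AS1 on the opposite strand, and whether counting used strand is not given in the sources used here. The counts are summed over the gene, so the standard and the variant CD44 isoforms were not separated.

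EPCAM, the epithelial adhesion molecule most often used to isolate liver progenitors, had only 10 and 14 counts in shCon and 19 and 19 in shUBXN1, or 0.375 and 0.596 CPM against 0.768 and 0.812 CPM. Both knockdown libraries were higher than both controls, but on so few reads that the log2 fold change of 0.71 had a 95% interval from -0.38 to 1.79 (SE 0.506, edgeR adjusted p = 0.252). A change of up to 3.46-fold upwards or down to 77.0% of control lies within this interval. EPCAM lies on chromosome 2 from 47345158 to 47387601 on the plus strand. PROM1, a pentaspan protein of membrane protrusions, on chromosome 4 from 15963076 to 16084378, had no count in any library. At this depth, a count of 0 allows a level of up to 0.113 to 0.128 CPM per library. THY1, a glycolipid-anchored protein of fibroblasts, neurons and some HCC cells, on chromosome 11 from 119415476 to 119424985, had 2 counts in shUBXN1 replicate 1 and 0 in the other libraries. No fold change was computed for PROM1, THY1 or KIT.

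The secreted ligand moved the other way. SPP1 had 1237 and 1284 CPM in shCon and 1581 and 1695 CPM in shUBXN1, and both knockdown libraries lay above both controls. SPP1 rose 1.299-fold (1.14 to 1.48), a log2 fold change of 0.38 (SE 0.0858, edgeR adjusted p = 0.00179). Without shCon replicate 2 the call was lost, but the log2 fold change was 0.39. It ran from 0.31 to 0.42 over the fits with 1 library left out. SPP1 lies on chromosome 4 from 87975667 to 87983532 on the plus strand, and 2.70% of its exon bases overlap an unnamed gene on the opposite strand. In TPM its rise was the largest absolute shift among the markers, from 1457 and 1468 in shCon to 1983 and 1975 in shUBXN1.

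KIT, the receptor for stem cell factor, which marks hematopoietic and mast cells as well as some hepatic progenitors, had 1 count in shCon replicate 1 and none elsewhere. It lies on chromosome 4 from 54657267 to 54740783 on the plus strand. KITLG, the gene of stem cell factor itself, was abundant, at 122.9 and 123 CPM in shCon and 78.9 and 82.8 CPM in shUBXN1. KITLG fell with a log2 fold change of -0.60 (edgeR adjusted p = 6.73e-06), so these cells carried RNA for the ligand and almost none for its receptor.

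Of the transcription factors, SOX4, which is active in embryonic progenitors and in epithelial-mesenchymal transition, was lower in both knockdown libraries. SOX4 had 221.9 and 222.5 CPM in shCon and 132.5 and 143.6 CPM in shUBXN1, with a wide gap between the groups. SOX4 fell to 62.1% of control (55.6% to 69.4%), a log2 fold change of -0.69 (SE 0.0746, edgeR adjusted p = 2.63e-06), the lowest value among the 7 tested markers, with an interval that overlapped those of CD24, CD44 and SALL4. It lies on chromosome 6 from 21593751 to 21598619 on the plus strand, with 3.45% of its exon bases shared with an unnamed gene on the opposite strand.

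SOX9, which specifies bile duct cells and is induced by Notch signaling, had 38.6 and 39.0 CPM in shCon and 35.9 and 41.1 CPM in shUBXN1. The knockdown libraries lay on either side of the controls. The log2 fold change was -0.01 (95% interval -0.20 to 0.18, SE 0.0885, edgeR adjusted p = 0.930), so that a level between 87.0% and 113.2% of control lies within the interval. Its sign changed under 6 of 15 other settings. SOX9 lies on chromosome 17 from 72121020 to 72126416 on the plus strand.

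SALL4, a zinc finger factor of embryonic stem cells that recruits the NuRD corepressor complex, had 32 and 14 counts in shCon and 27 and 25 in shUBXN1, which corresponds to 1.20 and 0.596 CPM against 1.09 and 1.07 CPM. The 2 controls lay further apart than the 2 groups, and the log2 fold change of 0.25 had a 95% interval from -0.74 to 1.24 (SE 0.462, edgeR adjusted p = 0.668). Without shCon replicate 2 it was -0.17, so its direction rests on that library. SALL4 lies on chromosome 20 from 51782331 to 51802521 on the minus strand.

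**Figure D2:**
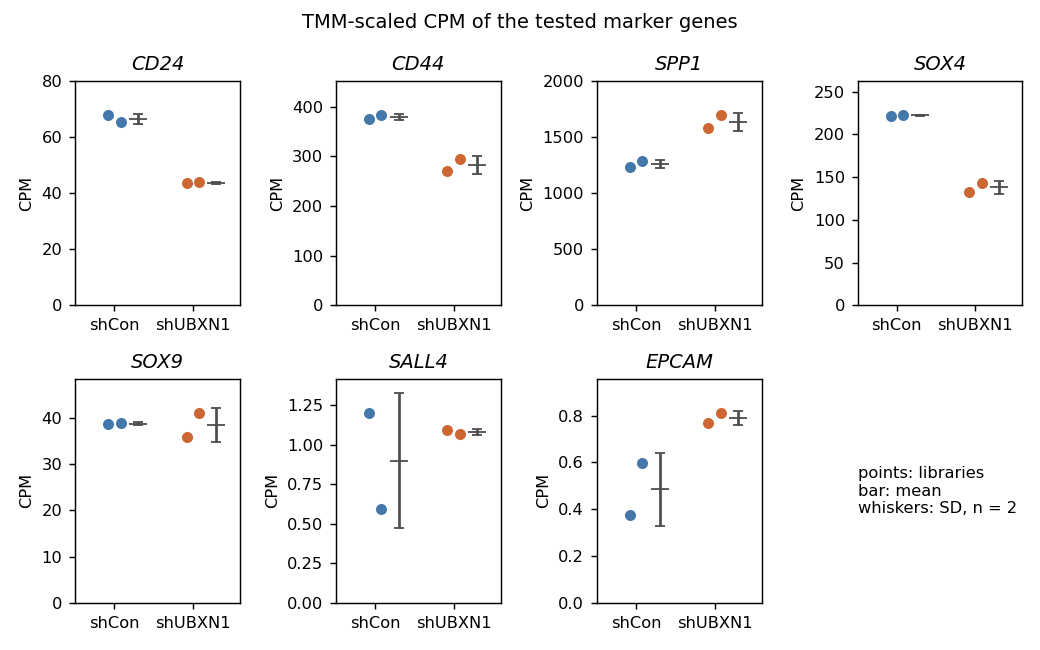
TMM-scaled CPM (linear axis from 0) of the 7 tested markers in shCon (blue) and shUBXN1 (orange); points are libraries, horizontal bars are means and whiskers are SD (n = 2). CD24, CD44 and SOX4 are lower and SPP1 is higher in both knockdown libraries, the SOX9 groups overlap, and SALL4 and EPCAM lie at or under 1.20 CPM.

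**Figure D3:**
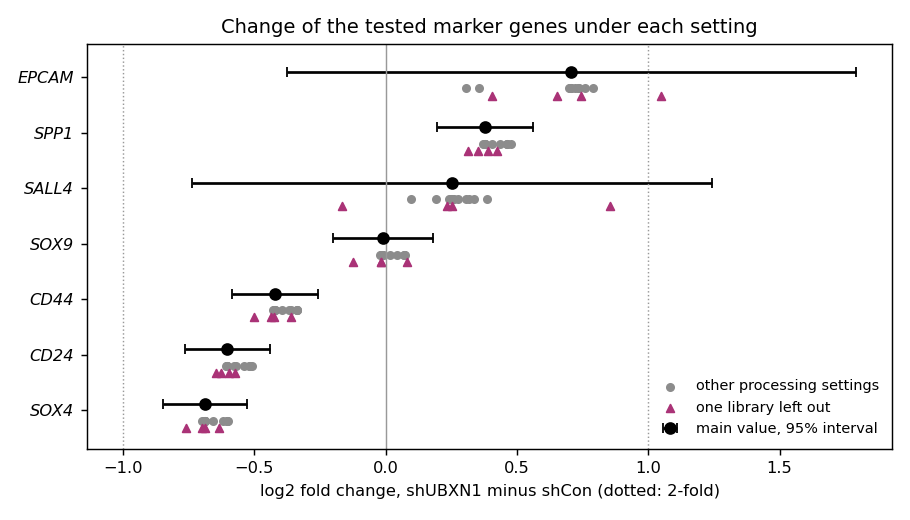
Log2 fold change (shUBXN1 minus shCon) of the 7 tested markers with an approximate 95% interval computed from the edgeR F statistic (black). Values are also drawn under the other processing settings (grey, some of them on a log scale with a pseudocount) and with 1 library left out (triangles). SOX4, CD24 and CD44 stay below 0 and SPP1 above 0 under every setting drawn, and no main value reaches the dotted 2-fold lines.

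The bases in front of the markers that were called lower and higher are shown because these genes moved in opposite directions. RefSeq (GRCh38.p14) gave promoter windows for 6 of the 10 markers, and none was given for EPCAM, SOX9, SALL4 or THY1. Each of the 35116 windows was searched over the 250 bases before the start for TATAAA, for the GC box GGGCGG, for the AP-1 site TGACTCA, for the SOX core ACAAAG and for the RBPJ site TGGGAA, on both strands. Matches are in capitals below, and bases that other transcripts of the same gene place in an exon are left out.
CD24, chr6:106975628-106975877, minus strand, before the 5′ end of the annotated gene: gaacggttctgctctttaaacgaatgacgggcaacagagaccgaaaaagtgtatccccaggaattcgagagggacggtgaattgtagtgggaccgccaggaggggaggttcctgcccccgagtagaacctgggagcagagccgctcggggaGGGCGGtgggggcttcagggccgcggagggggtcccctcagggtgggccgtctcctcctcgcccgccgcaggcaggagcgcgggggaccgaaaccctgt
SOX4, chr6:21593501-21593750, plus strand: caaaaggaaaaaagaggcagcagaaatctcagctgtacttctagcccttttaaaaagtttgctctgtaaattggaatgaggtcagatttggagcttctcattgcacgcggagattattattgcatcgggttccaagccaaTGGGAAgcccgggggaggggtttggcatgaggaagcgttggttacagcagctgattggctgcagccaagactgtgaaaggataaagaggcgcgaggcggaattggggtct
SPP1, chr4:87975464-87975666, plus strand, with no match: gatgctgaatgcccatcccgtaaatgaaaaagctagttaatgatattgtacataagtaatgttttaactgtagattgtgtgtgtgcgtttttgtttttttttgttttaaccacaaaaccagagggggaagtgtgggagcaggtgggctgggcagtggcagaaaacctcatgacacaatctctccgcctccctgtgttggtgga
CD24 has 3 RefSeq windows, of which the one at the 5′ end of the annotated gene is printed. It held 1 GC box and neither a SOX core nor an RBPJ site, whereas the other CD24 windows, which precede start sites at 106975465 and 106974039, each held both a SOX core and an RBPJ site. The CD44 window, which lies within annotated exons and is not printed, held 2 GC boxes. A GC box was present in 42.6% of all windows. SOX4 held an RBPJ site, as 20.8% of all windows did, and SPP1 held none of the motifs. None of the 3 printed windows had TATAAA, AP-1 or SOX letters, which were found in 10.7%, 4.2% and 13.7% of all windows. The GC content was 65.6% for CD24, 62.4% for CD44, 48.8% for SOX4 and 44.8% for SPP1, with a median of 58.0% over all windows. Such matches describe letters only, and factor binding was not measured.

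The surroundings of the markers were examined with lists of related genes. Of all genes tested, 28.0% were called higher and 28.2% lower, and the lists were not tested as sets. Of 20 other progenitor and stem cell surface markers, 16 were tested, of which 5 rose, 4 fell and 7 were not called, with a median log2 fold change of 0.07. With scaling by total counts, which moved the median of all genes from 0.02 to 0.10, the split was 7 higher and 3 lower. Over all genes, 57.3% of the calls were then higher, against 49.9% with TMM. ANPEP (CD13), an aminopeptidase of quiescent liver cancer stem cells, rose from 37.4 and 37.2 CPM to 208.7 and 219.4 CPM (log2 fold change 2.52, edgeR adjusted p = 2.50e-11). CLDN4 and TSPAN8, a tight junction protein and a tetraspanin, fell by 1.29 and 1.13 on the log2 scale.

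Of 20 biliary and oncofetal genes, 14 were tested, of which 6 rose, 3 fell and 5 were not called (median 0.25). The list included the keratins KRT8 and KRT18, set against the cell type above, with log2 fold changes of -0.44 and 0.31, both called. KRT19, the bile duct keratin that also defines a progenitor-like HCC class, fell from 295.5 and 290.4 CPM to 116.3 and 131 CPM (log2 fold change -1.25, edgeR adjusted p = 1.51e-08). KRT7, the other keratin typical of bile ducts, went the opposite way and rose from 41.33 and 44.02 CPM to 94 and 95.3 CPM (log2 fold change 1.15). MUC1, an apical mucin, and PEG10, an oncofetal retroelement-derived gene, rose with log2 fold changes of 2.39 and 1.34, whereas PROX1, a hepatoblast transcription factor, fell by 1.498 on the log2 scale. AFP, the fetal albumin relative, had 5.89 and 5.49 CPM in shCon and 5.37 and 3.93 CPM in shUBXN1 and was not called (edgeR adjusted p = 0.266).

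Among the 10 pluripotency factors, 5 were tested, and 2 rose and 3 fell (median -0.25). SOX2 fell from 39.4 and 38.2 CPM to 10.4 and 10.5 CPM (log2 fold change -1.89, edgeR adjusted p = 2.49e-09). POU5F1, which has several expressed pseudogenes and is therefore uncertain, and TFCP2L1 rose with log2 fold changes of 1.41 and 1.72, both from under 1 CPM in shCon. Of the 17 other SOX genes, 5 were tested, with 1 higher, 2 lower and 2 not called. SOX12, which belongs to the same SoxC group as SOX4, rose from 14.7 and 16.7 CPM to 37.3 and 38.3 CPM (log2 fold change 1.27, edgeR adjusted p = 1.02e-07), opposite to SOX4. The remaining SoxC gene, SOX11, was at 0, and SOX13 fell by 0.85 on the log2 scale.

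For EPCAM, whose intracellular domain is released by ADAM17 and gamma-secretase, all 14 listed processing enzymes and partners were tested, and 9 rose, 3 fell and 2 were not called (median 0.44). SPINT1 and SPINT2, the protease inhibitors that keep matriptase from cleaving EPCAM, rose with log2 fold changes of 1.77 and 1.70. CLDN7, the claudin that binds EPCAM directly, fell from 3.94 and 4.09 CPM to 1.54 and 1.58 CPM (log2 fold change -1.36, edgeR adjusted p = 7.74e-04).

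For CD44 and SPP1, 19 of 26 ligands, receptors and processing genes were tested, and 5 rose, 7 fell and 7 were not called (median -0.14). The osteopontin receptor subunit ITGAV rose from 367.4 and 353.2 CPM to 706 and 732.3 CPM (log2 fold change 0.997, edgeR adjusted p = 1.01e-07). Its partners ITGB3 and ITGB6 rose by log2 fold changes of 3.14 and 1.52 from under 2 CPM, and ITGB1 fell by 0.26. On the hyaluronan side, HAS2, a hyaluronan synthase, fell by 0.61, and CEMIP, which degrades hyaluronan, fell by 1.95 on the log2 scale. HAS3 and ESRP2, a synthase and a splicing factor of CD44, were not called, with log2 fold changes of -0.20 and 0.18, and the related splicing factor ESRP1 was not tested.

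All 20 KIT signaling genes were tested, and 7 rose, 7 fell and 6 were not called (median -0.11). With scaling by total counts, where the calls of all genes also shifted towards higher, 8 rose and 4 fell. STAT3 and STAT5A rose with log2 fold changes of 1.26 and 1.25, while KIT itself was not tested. MITF rose by 2.36 at a low level, from 0.49 and 0.34 CPM in shCon to 2.91 and 1.41 CPM in shUBXN1. Among the 7 that fell was KITLG, with a log2 fold change of -0.60. Of the SALL family and the NuRD complex, 15 of 17 were tested, with 4 higher, 9 lower and 2 not called (median -0.30). RBBP4, a histone chaperone of NuRD, fell from 135.5 and 133 CPM to 46.4 and 49.0 CPM (log2 fold change -1.49, edgeR adjusted p = 1.67e-09). The related scaffold genes GATAD2A and GATAD2B moved apart, with log2 fold changes of -1.14 and 0.87. SALL1, at 34.0 to 38.3 CPM, was not called (log2 fold change 0.01), and SALL2 was not tested.

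The Notch pathway, which acts upstream of SOX9 in the bile duct, had 20 of 23 genes tested. Of these, 9 were higher, 5 lower and 6 not called (median 0.20). With scaling by total counts, where the calls of all genes also shifted towards higher, 10 were higher and 3 lower. JAG2, a ligand, and HES4, a target, rose with log2 fold changes of 1.37 and 0.86, and the coactivator MAML1 fell by 0.86 on the log2 scale. Another ligand and another target moved the other way: JAG1 fell from 410.4 and 403.5 CPM to 271.1 and 294.5 CPM, and HES1 from 29.8 and 32.6 CPM to 18.8 and 21.9 CPM, with log2 fold changes of -0.53 and -0.62.

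**Figure D4:**
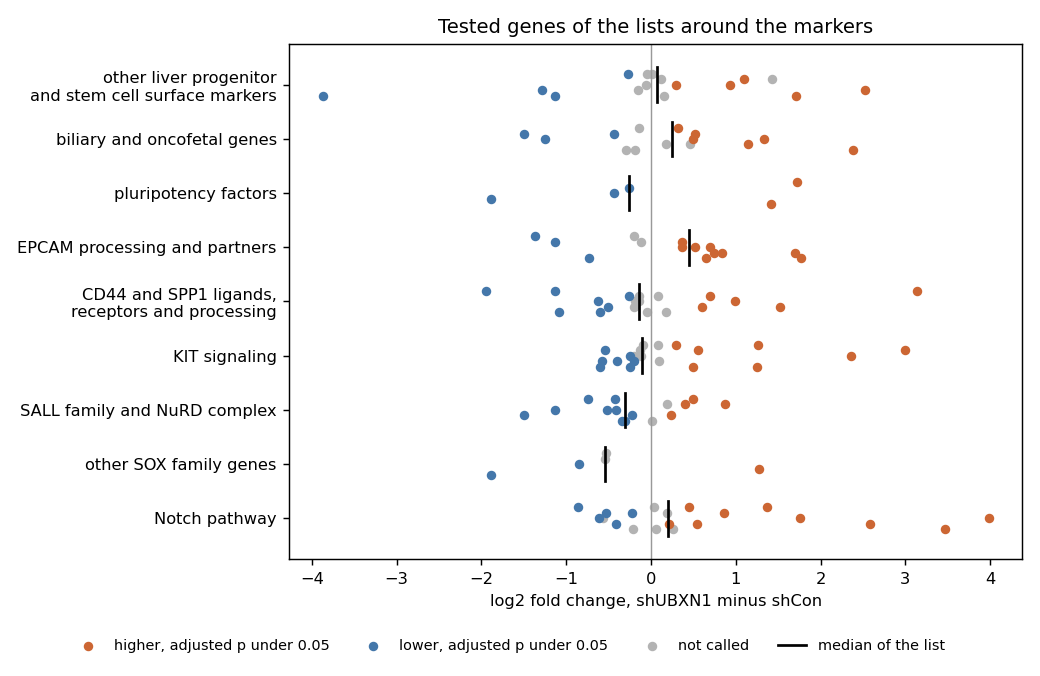
Log2 fold change (shUBXN1 minus shCon) of each tested gene in the 9 lists around the markers, coloured by call in edgeR, with the list median as a black line. Each list holds genes on both sides of 0, and the medians lie between -0.54 and 0.44; the fitted values of genes near 0 counts, at the far ends, depend on the prior count.

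In these libraries of a single cell line, genes used as markers of hepatocytes and of other cell types moved too. Their part in the results above was not tested. Over all genes tested, 28.0% were called higher and 28.2% lower, and these short lists were not tested as sets. The summed CPM of 7 hepatocyte genes was 157 and 143 in shCon and 46.2 and 46.0 in shUBXN1, with 5 of 7 lower and 1 higher. Most of this sum came from TF, at 102.8 and 92.4 CPM in shCon and 25.6 and 24.4 CPM in shUBXN1. The 8 fibroblast and stellate cell genes, which bear on THY1, summed to 33.3 and 33.8 CPM against 17.4 and 19.99 CPM, with 1 higher and 2 lower of the 3 tested, PDGFRA at 0 and most of the sum from LUM, which fell, while COL1A1 rose from 0.375 and 0.170 CPM to 2.34 and 2.52 CPM. The 7 leukocyte genes, which bear on CD44 and SPP1, summed to 84.0 and 89.7 CPM against 74.0 and 71.5 CPM, mostly CD68, with CD3E at 0. Of the 3 tested, 2 were lower and 0 higher. The 5 mast cell genes, which bear on KIT, summed to at most 0.301 CPM in any library, with CPA3 and CMA1 at 0. The 5 endothelial genes summed to 48.5 and 50.1 CPM in shCon and 92.7 and 99.9 CPM in shUBXN1, nearly all from PECAM1 and KDR. Of the 3 tested, 2 were higher and 0 lower.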

How the data were processed

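RNA of MHCC97H cells (2 shCon and 2 shUBXN1 libraries) was sequenced after mRNA-seq library preparation. Per the submitters' processing notes, HISAT2 2.0.4, StringTie 1.3.0 and GRCh37 were used, whereas the study's methods name GRCh38; the build, the annotation and the use of strand therefore remain unsettled, and positions are those of GENCODE for GRCh38. In the table that the authors deposited, each gene has expected counts, not normalized; in each library 62.4% to 64.6% of those above 0 were whole to within 1e-06. Here they were rounded, filtered with filterByExpr, scaled by TMM (factors 0.968 to 1.06) and tested with the quasi-likelihood test of edgeR 4.0.16 in R 4.3.3 without a block, with adjustment over 16863 genes; the biological coefficient of variation was 0.0711. TPM was computed from the counts and the deposited gene length. The study's methods name TPM and limma; limma 3.58.1 on log2(TPM + 1) was run as an alternative, as was DESeq2 1.42.0. The test was checked on simulated counts. Replicates differed by more than counting noise, with chi-square per degree of freedom of 3.83 in shCon and 8.48 in shUBXN1. Of 61541 gene IDs, 61369 matched a GENCODE symbol.

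The markers and lists were chosen with earlier results of these data known. Named genes were the 10 markers, UBXN1, a fixed set of direct partners, and the 3 largest called changes of each list whose mean log2 CPM exceeded 0 and whose libraries separated by group; KRT7, KRT8, KRT18, ALB, JAG1, HES1, COL1A1 and the leading genes of the cell type lists were added after their values were seen, and a gene of the named set is not reported here. Floors (3 counts per library) and intervals of levels cover counting error only.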

Additional observations from a re-analysis of the deposited data

How the results depend on the processing

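Over 15 alternatives for each of the 7 tested markers, 97 of 105 values kept their direction and side of the threshold. CD24 ranged from -0.65 to -0.51, CD44 from -0.50 to -0.34, SOX4 from -0.76 to -0.60, SPP1 from 0.31 to 0.48 and EPCAM from 0.30 to 1.05 on the log2 scale. SPP1 lost its call without shCon replicate 2, where its log2 fold change was 0.39, against 0.38 with all libraries. Each fit with 1 library left out assumes that a lone library varies like the other group. SOX9, never called, became positive with total count scaling (0.0728), limma on log2(TPM + 1) (0.0437), log2(CPM + 1) (0.0693) and log2(CPM + 0.1) (0.0709), and with at least 10 counts in every library (0.0170); it ran from -0.12 to 0.081 over the fits without 1 library. SALL4 ran from -0.17 to 0.85 over those fits. The causes were not tested, except that the pseudocounts shrink the changes of low genes by construction. At a fold change of at least 1.5 with an unadjusted p under 0.05, 2 of the 7 tested markers were lower, against 0 at 2-fold. The share of all genes that met the 1.5-fold rule was not computed, so this count cannot be set against it. Over genes, the deviations of the libraries numbered 1 from their group means had a correlation of 0.03. This shows no shift shared by replicate number, but it cannot show whether such libraries were handled together. With a replicate block, the log2 fold change was -0.69 for SOX4, 0.38 for SPP1 and -2.03 for UBXN1, and no call of a marker changed. Depth limits EPCAM and SALL4, with at most 32 counts per library, and leaves PROM1, THY1 and KIT without a test.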
